A study of Mus musculus with 5 samples.

Results

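The genes described here are 7 transcription factors and 1 structural gene of the myogenic programme: the myogenic regulatory factors Myod1, Myf5, Myog and Myf6, the transcription factors Mef2a, Mef2c and Srf, and desmin (Des). They were chosen by name, as the probes annotated with these symbols, and make up 8 of the 203 named genes on the array, with 1 probe each. Expression had been measured on a 223-probe array in whole soleus, a postural calf muscle rich in slow fibres, of C57Bl/6 mice after 7 days of reloading, the state in which a muscle bears weight again. The titles mark the mice as wt and number them 1, 3, 4, 5 and 6. All 5 arrays belong to this reloaded group. Unloaded and untreated muscle was not analysed here, so the values below describe differences between mice of 1 condition and no effect of reloading. Age and sex are not given in the labels used here.

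Myod1, Myf5, Myog and Myf6 are basic helix-loop-helix proteins that bind E-boxes, short DNA motifs in the control regions of muscle genes. Myf5 and Myod1 act early, when satellite cells, the stem cells of muscle, become myoblasts. Myog acts as myoblasts differentiate and fuse, and Myf6, also called MRF4, acts late and is the family member best known from mature fibres. MEF2 proteins bind AT-rich sites and work together with the myogenic factors. Srf, serum response factor, binds CArG boxes in genes of actin and other cytoskeletal proteins. Desmin is the intermediate filament protein of muscle, which ties neighbouring myofibrils together at the Z-discs.

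The later myogenic factors Myog and Myf6 were above 0 in every mouse, and the early factors Myod1 and Myf5 were not. Of the 8 genes, Myog, Myf6, Mef2a, Mef2c, Srf and Des were above 0 on all 5 arrays. Myod1 was above 0 on 4 arrays and Myf5 on 0. Over the whole array, 147 of 223 probes, or 65.9%, were above 0 on all 5 arrays, and 17 probes, or 7.62%, were above 0 on none, so a count of 6 of 8 is close to that of the array as a whole. By mouse, 6 of the 8 were above 0 in mouse 1 and 7 of the 8 in each of mice 3, 4, 5 and 6. The same shares over all probes were 76.2%, 83.9%, 91%, 73.5% and 84.8% in mice 1, 3, 4, 5 and 6. A stricter limit took a value as measured only if it exceeded the size of the most negative value on its array, which was 0.0168, 0.0059, 0.0041, 0.0103 and 0.0109 in mice 1, 3, 4, 5 and 6. All values are intensities in arbitrary units, whose scale is not stated in the sources used here. They were taken as linear, and every fold, ratio and CV below rests on that. Under this limit 5 of the 8 genes were measured on every array, against 45.3% of all probes, because Mef2a lay under it in mice 1 and 5.

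**Figure D1:**
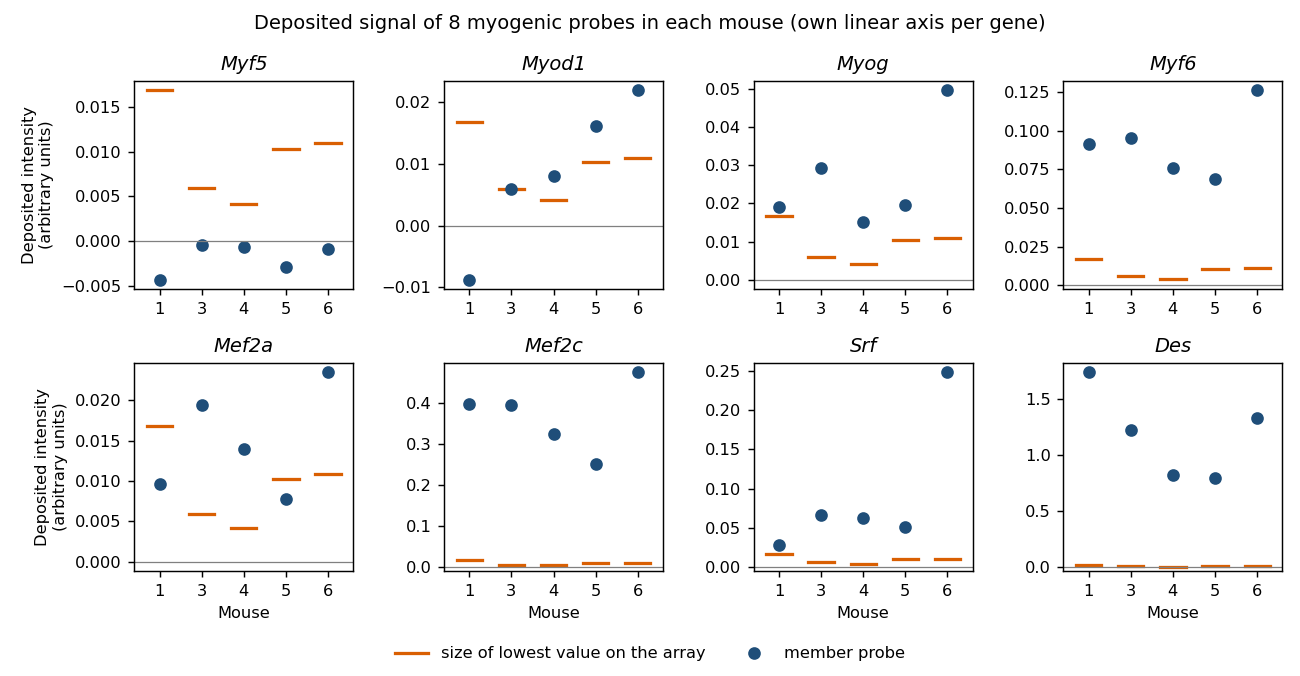
Deposited intensity (arbitrary units, own linear axis for each gene) of the 8 probes in mice 1, 3, 4, 5 and 6, as points, with the size of the most negative value on each array as bars. Myf5 lies below 0 in all mice, Mef2a lies under the bar in mice 1 and 5, and Srf reaches 0.248 in mouse 6 against 0.0286 to 0.0659 in the others.

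The muscle itself was recognisable from its fibre genes. Of the slow fibre markers, Myh7 and Mb were on the array, and of the fast fibre markers Myh1, Myh2 and Myh4, and all 5 were above 0 in every mouse. Of the 5 listed immune cell markers, only the cytokines Il1b and Il6 were on the array, and both were at or below 0 in all mice. Their values do not show that immune cells were absent. In whole muscle, fewer cells of a type and less RNA per cell cannot be told apart. Total signal per array ran from 70.8 in mouse 4 to 137 in mouse 1. The array of mouse 1 stood furthest from the rest, with a mean Spearman correlation with the other arrays of 0.878 across the 147 probes above 0, against 0.941 to 0.947 for the other arrays. Results that rest on mouse 1 are therefore also given without it.

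The 2 early factors differed from each other in how often they were seen. Myf5, a determination factor of myoblasts, was at -0.0043, -0.0004, -0.0006, -0.0029 and -0.0009 in mice 1, 3, 4, 5 and 6. Every mouse was thus just under 0, and the signal was bounded only by the background. Myod1, its partner in determination, was at -0.0088, 0.006, 0.008, 0.0162 and 0.0219 in mice 1, 3, 4, 5 and 6. Mouse 1 was the exception below 0, and mouse 3 was barely above the stricter limit, at 1.02 times the size of its array's lowest value. In mice 4, 5 and 6 the value was 1.95, 1.57 and 2.01 times that size. Where it was above 0, Myod1 was therefore close to the background. Its rank among the 223 probes, counted from the lowest, was 23 in mouse 1. It was 70.5, 78.5, 115 and 94 in mice 3, 4, 5 and 6. A value at or below 0 does not show that a transcript was absent. Markers of satellite cells and myoblasts stand beside these values: Vcam1 and Cd34, the 2 of 6 listed markers on the array, were above 0 in all mice, but Vcam1 passed the stricter limit on 1 array. Cd34 was at 0.135, 0.105, 0.131, 0.112 and 0.243 in mice 1, 3, 4, 5 and 6 and made up nearly all of the summed signal. The sum lay between 2.40 times the array median in mouse 3 and 3.16 times in mouse 6. The array median, here and below, is that of the 147 probes above 0 on all 5 arrays. Vcam1 was at 0.0009 in mouse 1, where Myod1 was below 0, and at 0.0026 to 0.0067 in the others. Which cells of the whole muscle gave the Cd34 and Vcam1 signals cannot be told here, so they are no measure of satellite cells alone. The part of these cells in the Myod1 values was not tested.

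Myog, the factor of differentiating myoblasts, was above 0 in all mice and dim. Its deposited value was 0.0191, 0.0294, 0.0152, 0.0197 and 0.0496 in mice 1, 3, 4, 5 and 6. Mouse 6 was highest and mouse 4 lowest as deposited. Once each array was divided by its median, mouse 3 was highest, at 0.652 against 0.629 in mouse 6. Mice 1 and 4 were then lowest and nearly equal, at 0.344 and 0.345. In mouse 1 the value was 1.14 times the size of the lowest value on the array, so that measurement sits close to the background. After quantile normalisation between arrays, which gives every array the same distribution of signals, Myog was at 0.0244 ± 0.00815 (SD, n = 5). The coefficient of variation (CV, SD divided by mean, in percent) was 33.4%, and 52.2% as deposited. Mouse 6 was highest and mouse 1 lowest both after quantile normalisation and after division by the array total.

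The start region of Myog is shown because the gene is a classical target of E-box and MEF2 proteins. It is the RefSeq window on GRCm38.p6 at chr1:134289754-134290053, plus strand, from 250 bases before the start site to the 50th base after it, with E-boxes in capitals.
Myog: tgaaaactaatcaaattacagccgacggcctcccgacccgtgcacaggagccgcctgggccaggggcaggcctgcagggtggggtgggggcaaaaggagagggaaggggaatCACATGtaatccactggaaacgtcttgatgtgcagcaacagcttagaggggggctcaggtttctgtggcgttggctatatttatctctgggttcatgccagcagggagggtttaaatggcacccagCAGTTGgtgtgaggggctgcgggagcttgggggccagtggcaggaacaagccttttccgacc
Windows were searched on both strands for the E-box CANNTG, the MEF2 consensus YTAWWWWTAR and the CArG box CCWWWWWWGG, and no matches overlapped. Here Y is C or T, R is A or G, W is A or T and N is any base. Near matches were not counted, such as CTATATTTAT in the Myog window, which misses the MEF2 consensus at its last base. RefSeq windows were at hand for 6 of the 8 genes, Myf5, Myog, Mef2a, Mef2c, Srf and Des, with 3 windows for Mef2c and 8 in all. The Myog window held the E-boxes CACATG and CAGTTG, starting at -138 and -12 from the start site. E-boxes are common letters: 72.3% of the 32851 windows held at least 1, and 4 of the 8 windows here did. The window of Des held CAAATG at -220 and CAGCTG at -36. Windows of Mef2c held CAAGTG at -234 and CATATG at -100 in the first and CAGATG at -245 in the last. A match is a description of the letters and not evidence of binding.

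Myf6, the factor of mature fibres, was among the steadier genes. It was at 0.0915, 0.0952, 0.0756, 0.069 and 0.126 in mice 1, 3, 4, 5 and 6. Mouse 6 was highest as deposited, yet lowest after quantile normalisation and after division by the array median, where mouse 3 was highest. Every value was at least 5.45 times the size of the lowest value on its array. The quantile-normalised level was 0.0933 ± 0.0122 (SD, n = 5), a CV of 13.0%. Probes were split by mean signal into 3 equal classes. Of the 49 probes in the class of Myf6, 44 had a larger CV, and the median CV of the class was 34.6%. The CV was 24.2% as deposited and 19.7% with each array divided by its total.

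The within-array ratio of Myf6 to Myog sets the late factor against the differentiation factor, and a factor common to a whole array cancels in it. Probes differ in signal per transcript, so the size of such a ratio is not a ratio of transcripts, and only its differences between mice are read. The ratio of deposited values was 4.79, 3.24, 4.97, 3.50 and 2.54 in mice 1, 3, 4, 5 and 6. Mice 1 and 4 were high, mouse 6 was low, and the highest was 1.96 times the lowest. On the log2 scale the mean was 1.88 ± 0.41 (SD, n = 5). Mouse 6 was also lowest after quantile normalisation, at 2.46, and after an offset was added to every value, at 2.26. That offset was the size of the array's most negative value, and it probes how far dim denominators set a ratio. Mouse 4 was highest with the offset, at 4.13, and mouse 1 highest after quantile normalisation, at 5.78. With the offset mouse 1, where Myog was only 1.14 times the size of the lowest value, was at 3.02. It then lay near mice 3 and 5, at 2.86 and 2.64, and no longer stood high with mouse 4.

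Mef2a, a MEF2 factor found in many tissues, was the dimmest relative to background of the genes seen in every mouse. It was at 0.0096, 0.0194, 0.014, 0.0078 and 0.0235 in mice 1, 3, 4, 5 and 6. In mice 1 and 5 these were 0.571 and 0.757 times the size of the lowest value on the array, so both are near the background. The quantile-normalised level was 0.0139 ± 0.00409 (SD, n = 5), with a CV of 29.4%, or 44.3% as deposited. The start region of Mef2a is shown because it held a MEF2 consensus match, in capitals, which 3.19% of all windows did. It lies at chr7:67372809-67373108 on GRCm38.p6, minus strand, printed 5′ to 3′ on that strand, and the match CTAAAAATAG starts at -2, across the start site.
Mef2a: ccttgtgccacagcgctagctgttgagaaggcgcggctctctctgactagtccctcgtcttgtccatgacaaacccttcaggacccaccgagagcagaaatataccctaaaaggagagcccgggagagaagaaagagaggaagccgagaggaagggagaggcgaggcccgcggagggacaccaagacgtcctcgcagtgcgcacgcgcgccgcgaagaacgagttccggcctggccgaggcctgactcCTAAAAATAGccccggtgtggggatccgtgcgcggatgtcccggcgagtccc
Of the 8 windows of these genes, 1 held a full match to the MEF2 consensus, near matches not being counted.

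Mef2c, the MEF2 factor most tied to muscle and also expressed in endothelium, was far above background in every mouse. Its deposited value was 0.396, 0.394, 0.324, 0.252 and 0.473 in mice 1, 3, 4, 5 and 6. Mouse 5 was lowest and mouse 6 highest as deposited, while mouse 3 was highest after quantile normalisation and with each array divided by its median or its total. All values were at least 23.6 times the size of the lowest value on the array. The CV was 18.7% after quantile normalisation and 22.7% as deposited. As deposited, 46 of the 49 probes in the brightest class had a larger CV, but after quantile normalisation 28 did. Endothelial markers stand beside it: the summed deposited signal of Pecam1, Cdh5, Tek, Kdr and Flt1, all 5 of the list and all above 0 in every mouse, was 0.281, 0.264, 0.381, 0.395 and 0.633 in mice 1, 3, 4, 5 and 6. As deposited both the sum and Mef2c were highest in mouse 6. Over the array median the sum was highest in mouse 5, at 9.79, and lowest in mouse 1, at 5.07, whereas Mef2c was highest in mouse 3, at 8.73, and lowest in mouse 6, at 6.00. Its part in the Mef2c values was not tested.

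The Mef2c to Mef2a ratio was highest in the mice in which Mef2a was nearest the background. As deposited it was 41.3, 20.3, 23.2, 32.2 and 20.1 in mice 1, 3, 4, 5 and 6. Mice 1 and 5, where Mef2a was under the stricter limit, were the 2 highest. The mean log2 ratio was 4.72 ± 0.46 (SD, n = 5), and the highest ratio was 2.05 times the lowest. With the offset added the ratios were 15.6, 15.8, 18.1, 14.5 and 14.1 in mice 1, 3, 4, 5 and 6, with an SD of 0.14 on the log2 scale, and mice 1 and 5 no longer stood above the rest. The range shrank to 1.29-fold. After quantile normalisation the ratios were 44.3, 23.5, 26.4, 20.7 and 22.8 in mice 1, 3, 4, 5 and 6. Mouse 1 was then still highest and mouse 5 lowest, with a 2.14-fold range. The order of the mice for this ratio thus changed with the offset and with quantile normalisation. In mice 1 and 5 the offset was larger than the Mef2a value itself, so adding it had to lower those 2 ratios most. The offset therefore cannot show what these ratios would be with Mef2a well above background.

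**Figure D2:**
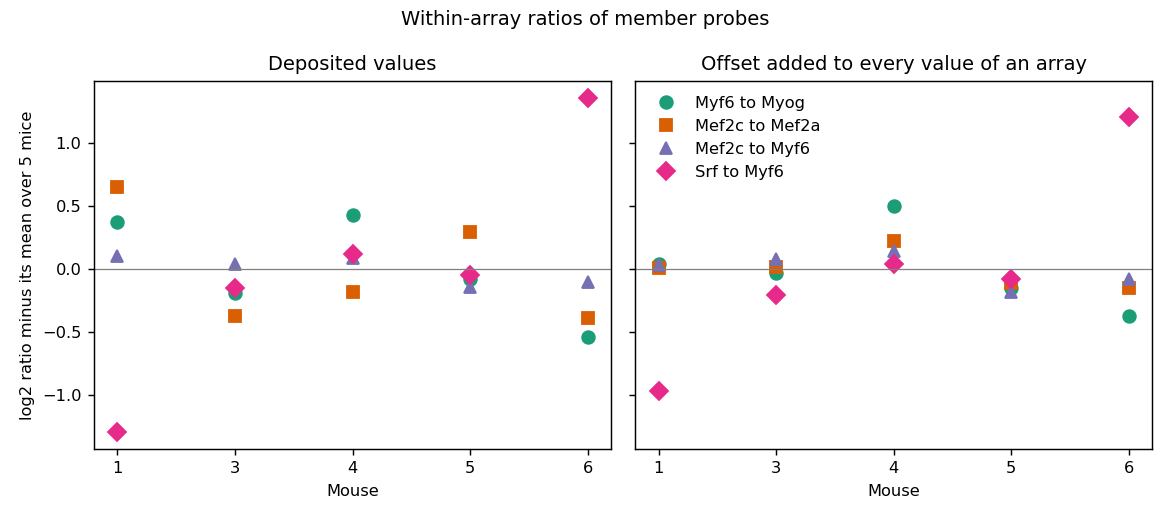
Within-array log2 ratio minus its mean over the 5 mice (y axis) for 4 pairs of genes in mice 1, 3, 4, 5 and 6, from deposited values on the left and with the offset on the right. The Mef2c to Mef2a points of mice 1 and 5 are the highest of the 5 on the left but not on the right, and the Srf to Myf6 points in mice 1 and 6 lie apart from those of mice 3, 4 and 5 in both panels.

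Mef2c and Myf6 kept the steadiest ratio of the 15 pairs among the 6 genes when deposited values were used. The ratio was 4.33, 4.14, 4.29, 3.64 and 3.75 in mice 1, 3, 4, 5 and 6. Mice 1, 3 and 4 were close to each other, and mice 5 and 6 were slightly lower. The SD of the log2 ratio was 0.11, and 32 of the 10731 pairs of probes above 0 on all arrays, or 0.298%, had a smaller one. Among the pairs of a bright and a middle probe it was 0.500%. The pair was picked as the lowest of 15, and a pair picked so tends to rank low. Without mouse 1 the SD was 0.11 and 1.37% of all pairs were lower. With the offset it was 0.13, with 1.08% lower, and Myf6 to Mef2a was then steadier, at 0.07. After quantile normalisation the SD of Mef2c to Myf6 was 0.29, with 7.59% of pairs lower and a lowest ratio of 2.70 in mouse 5. Des to Myf6, at 0.18, and Des to Mef2c, at 0.19, were then steadier. The closeness of Mef2c to Myf6 thus depends on the scaling. Values of all probes on an array share its noise and scaling, and these percentages describe the 5 arrays.

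Over the 15 pairs, 5 kept a highest ratio within 2 times the lowest, against 15.9% of all probe pairs. These were Myf6 to Myog, Mef2c to Myf6, Des to Mef2c, Des to Myf6 and Myf6 to Mef2a. All of them except Des to Mef2c hold Myf6. The 15 pairs are made from 6 genes that recur in them, so they are not independent of each other. Of the 10 pairs without Srf, 5 kept within 2-fold, and of the 5 pairs with Srf 0 did. The median SD was 0.50 over the 15 pairs and 0.75 over all pairs. With the offset 8 of the 15 kept within 2-fold, against 33.8% of all pairs, and after quantile normalisation 4, against 17.5%. Leaving out mouse 1 gave 7 of 15, against 37.5% of all pairs.

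**Figure D3:**
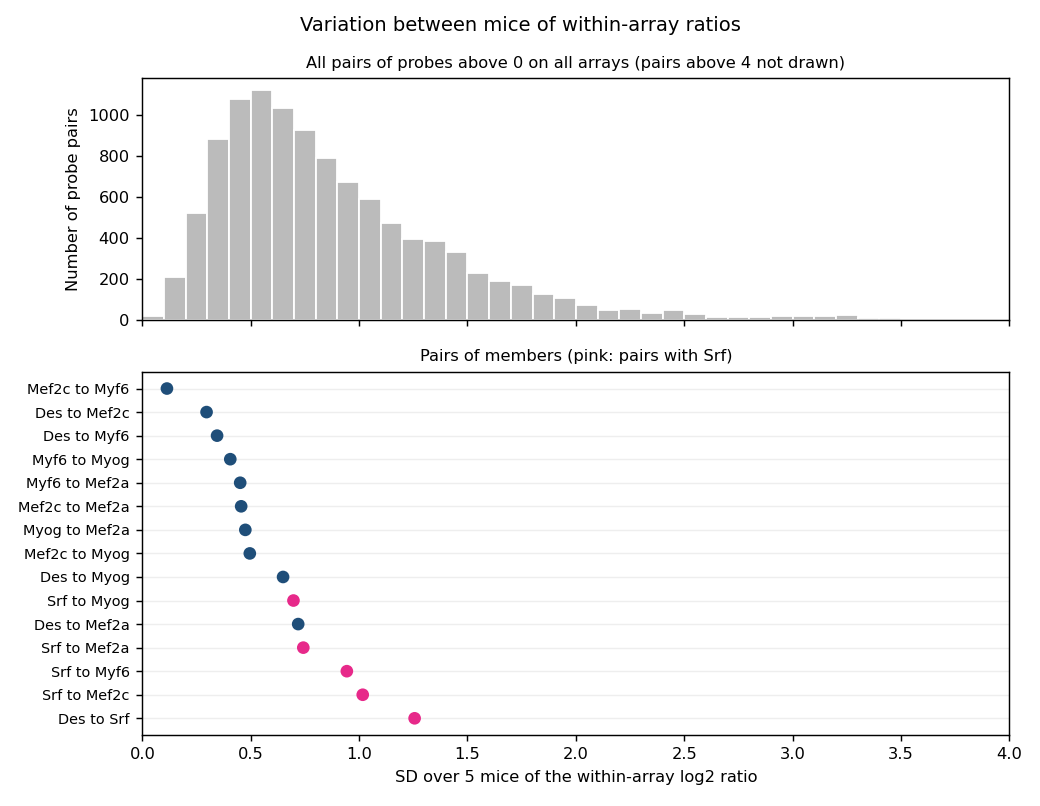
SD over 5 mice of the within-array log2 ratio (x axis), as a histogram over all 10731 pairs of probes above 0 on all arrays (top, number of pairs) and as a point for each of the 15 pairs of members (bottom). Mef2c to Myf6 is lowest at 0.11, and Des to Srf is highest at 1.26.

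Of the 6 genes above 0 on all arrays, Srf differed most between mice, high in mouse 6 and low in mouse 1. Its deposited value was 0.0286, 0.0659, 0.0629, 0.0512 and 0.248 in mice 1, 3, 4, 5 and 6. Mice 3, 4 and 5 lay close together. Mouse 6 stood at 4.34 times the median of the other mice, while the median of all 147 probes stood at 1.69 times on that array. With each array divided by its median, Srf was at 0.515, 1.46, 1.43, 1.27 and 3.14 in mice 1, 3, 4, 5 and 6, and mouse 6 was at 2.33 times the median of the others. As deposited, 2 of the 147 probes had a larger excess in mouse 6. They were Ldhc and Top3a, named after their values were seen, at 0.0487 and 0.0161 there. With the offset, 0 of the 147 had a larger excess, at 4.03-fold for Srf. Mouse 1 was at 0.357 times the median of the others with median scaling, lower than 130 of the 147 probes and higher than 16.

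The CV of Srf was the largest of the 6 genes as deposited, after quantile normalisation and after division by the median or the total. The quantile-normalised level was 0.0783 ± 0.0473 (SD, n = 5), a CV of 60.5%, which was 97.2% as deposited. Without mouse 6 the CV was 37.9%, and without mouse 1 it was 47.0%. Of the 49 probes of like signal, 2 had a larger CV. Its ratio to Myf6 was 0.313, 0.692, 0.832, 0.742 and 1.97 in mice 1, 3, 4, 5 and 6. Mice 3, 4 and 5 again lay together, and the highest was 6.29 times the lowest, or 4.51 times with the offset. Without mouse 1 this range was 2.84-fold and without mouse 6 it was 2.66-fold. The SD of the log2 ratio of Des to Srf was 1.26, and 0.80 without mouse 1. Against Des, Myog, Mef2a and Mef2c, too, Srf was highest in mouse 6 and lowest in mouse 1, as deposited, with the offset and after quantile normalisation.

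Values that could move with Srf were looked at in mouse 6. The 8 probes above 0 whose identifiers carry the same number as that of Srf, 23, had a median excess of 1.75-fold in mouse 6 with Srf left out, and the highest of them was Myog at 2.56-fold. What the identifiers say of a place on the array is not given in the sources used here. Pdgfrb, the 1 of 5 smooth muscle and pericyte markers on the array, was above 0 in every mouse. It was at 0.678 of the median of the 147 probes in mouse 6, under its range of 0.779 to 0.924 in the others. The summed signal of Vcam1 and Cd34, nearly all Cd34, stood at 3.16 times the array median in mouse 6 against 2.40 to 3.08 in the others. Endothelial markers stood at 8.04 against 5.07 to 9.79. The part of the cells that carry these markers in the Srf value was not tested.

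The start region of Srf is shown because it held the CArG boxes CCATATAAGG and CCATAAAAGG, the motif that the Srf protein binds, at -82 and -62. It lies at chr17:46556113-46556412 on GRCm38.p6, minus strand, printed on that strand with the boxes in capitals. A CArG box occurred in 1.63% of the 32851 windows and in 1 of the 8 windows of these genes.
Srf: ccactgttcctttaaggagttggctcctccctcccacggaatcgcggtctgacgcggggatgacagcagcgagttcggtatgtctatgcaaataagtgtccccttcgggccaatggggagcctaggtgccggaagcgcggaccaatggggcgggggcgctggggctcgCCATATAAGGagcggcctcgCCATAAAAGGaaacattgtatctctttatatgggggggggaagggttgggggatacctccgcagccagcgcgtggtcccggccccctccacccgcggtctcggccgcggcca
No measurement here bears on binding at these letters.

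**Figure D4:**
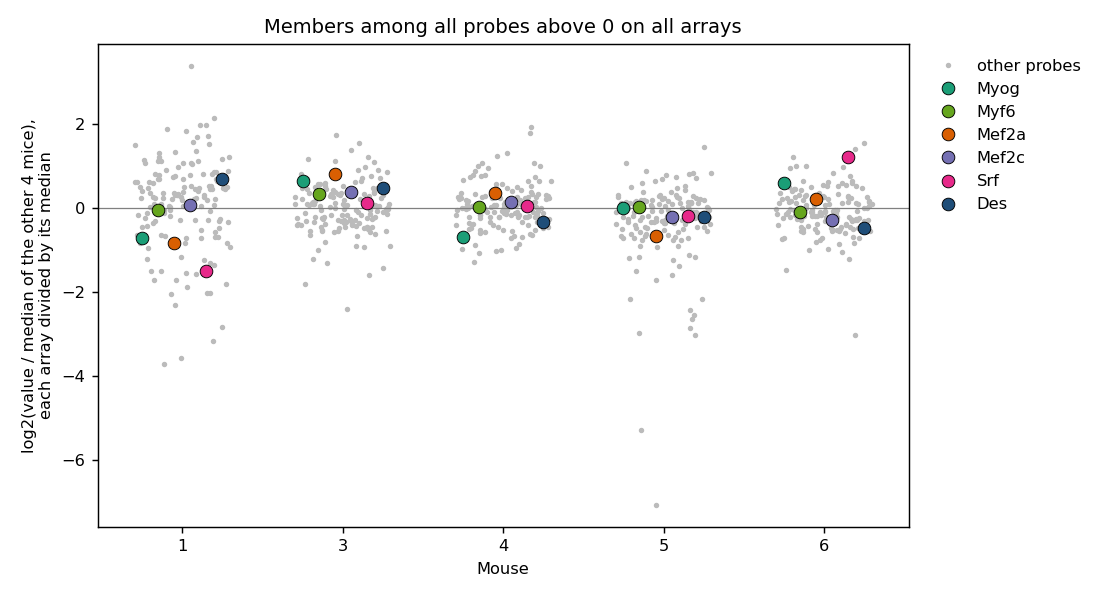
log2 of each probe's value over the median of the other 4 mice is drawn for mice 1, 3, 4, 5 and 6 (y axis). Each array was divided by its median over the 147 probes above 0 on all arrays. Grey points are these 147 probes and coloured points the 6 genes. Srf lies near the top in mouse 6 at 1.22 and low in mouse 1 at -1.49, and near 0 in mice 3, 4 and 5.

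Des, the structural gene, was bright in every mouse and its order of mice depended on the scaling. It was at 1.74, 1.22, 0.825, 0.799 and 1.33 in mice 1, 3, 4, 5 and 6. Mouse 1 was highest as deposited and with median scaling, and mouse 3 after quantile normalisation and division by the total. The CV was 17.0% after quantile normalisation, or 10.1% when mouse 3 was left out. It was 33.0% as deposited and 27.1% after division by the median. Set against the factors within arrays, Des was highest in mouse 1 for all 5 ratios of deposited values. Its ratio to Mef2c was 4.39, 3.10, 2.55, 3.18 and 2.81 in mice 1, 3, 4, 5 and 6. Mouse 1 stood above the other 4, and without it the SD of this log2 ratio was 0.15 in place of 0.30. Des to Myf6 behaved alike, at 19.0 in mouse 1 and 10.6 to 12.8 in the others, with SDs of 0.34 and, without mouse 1, 0.12. After quantile normalisation the same SDs were 0.19 for Mef2c and 0.18 for Myf6, and the highest Des to Mef2c ratio was then in mouse 5.

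None of these spreads passed a test against probes of like signal. The log2 variance of each probe was set against a trend in mean signal with limma (fitFDistRobustly) over 146 probes, and 0 probes were called wider and 0 narrower at an adjusted p of 0.05 (0% of those tested). At an unadjusted p of 0.05, 7 were wider and 8 narrower, and none of the 6 genes was among them. In some alternatives the unadjusted limma p passed: for Srf wider it was 0.029 as deposited and 0.039 after division by the total, and for Myf6 narrower it was 0.028 after division by the median, 0.049 without the dimmest 25% of probes and 0.049 without mouse 3. Srf had an SD 2.02 times the trend (limma, adjusted p = 0.89) and was the 14th widest of 146. Myf6 had an SD 0.42 times the trend (limma, adjusted p for narrower = 0.80). Myog, Mef2a, Mef2c and Des lay between 0.782 and 1.08 times the trend. Over the alternatives the smallest adjusted p was 0.67 for Srf and 0.67 for Myf6 (limma). A p that misses the threshold does not show that these genes varied like others.

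Of 46 listed regulators, partners and targets of these factors 13 were on the array. All 13 were above 0 on all arrays, against 68.0% of the 203 named genes, and 11 passed the stricter limit on all arrays, against 46.8%. Cdkn1a and Ccnd1 did not. The list holds the myosins and Mb, whose genes are targets of MEF2 and the myogenic factors, the growth factors Igf1 and Igf2, and the cell cycle genes Rb1, Cdkn1a, Ccnd1 and Cdk4. Cdkn1a, a cell cycle inhibitor that Myod1 can induce, was at 0.0645 in mouse 1 and at 0.0052, 0.0047, 0.0037 and 0.0155 in mice 3, 4, 5 and 6. Mouse 1, where Myod1 was below 0, had the highest Cdkn1a, and in mice 3 and 5 Cdkn1a lay under the stricter limit. With each array divided by its median, Cdkn1a in mouse 1 had a log2 excess over the median of the others of 3.39. This was the largest of the 147 probes, on the array that stood furthest from the rest. A link between Cdkn1a and Myod1 was not tested. Fst, follistatin, an inhibitor of myostatin, was at 0.0171, 0.028, 0.0286, 0.0299 and 0.0607 in mice 1, 3, 4, 5 and 6, with mouse 6 highest and mouse 1 lowest as for Srf. Of the 147 probes, 23, or 15.6%, had these extremes as deposited, among them Rb1 and 1 of the 2 Igf1 probes, and with the offset 10 did, Fst not among them.

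The genes with the steadiest ratio to each member were found among 134 named probes, by the SD over 5 mice of the log2 ratio of deposited values. For Mef2c they were the slow myosin heavy chain Myh7, with an SD of 0.09, and the integrin Itgb1, with 0.15. The median SD over the 134 probes was 0.52 for Mef2c, and genes picked as the steadiest of so many tend to have a small SD. Myh7 kept first place for Mef2c without mouse 1 and with the offset. Both checks reuse the same arrays, and the offset barely changes the ratio of 2 such bright probes. Myh7 was at 5.33, 4.54, 3.92, 2.86 and 5.60 in mice 1, 3, 4, 5 and 6. Its ratio to Mef2c stayed within 1.18-fold. For Myf6 they were the lipoprotein receptor Vldlr, at 0.12, and the glycolytic enzyme Aldoa, at 0.16. For Des they were the laminin chain Lama5, at 0.12, and the kinase Dmpk, at 0.16. The nearest genes of the dim or variable members were less close. They were the matrix protein Tnc (0.27) and the protease inhibitor Timp1 (0.28) for Myog, and the ephrin Efnb2 (0.25) and Arnt (0.27), a partner of hypoxia factors, for Mef2a. For Srf they were the protease Plau, at 0.34, and the cyclin Ccna1, at 0.44. Plau lay under the stricter limit in mice 1 and 5 and came only 37th with the offset, where Ccna1 came first, and Arnt lay under that limit in mouse 1, so their places rest partly on values near the background. Of these 12 genes, 3 were still among the nearest 2 without mouse 1 and 7 with the offset.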

How the data were processed

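RNA from soleus of 5 reloaded mice was hybridised, 1 array per mouse, each with 3 microgram of total RNA per the labels. The authors deposited array intensities for 223 probes. The sources used here do not give the scale, the scanner, the background correction or the scaling, and the values were taken as linear. Each array holds some values below 0, and column totals differ, so no common scaling was assumed. Probes were named through the platform annotation (205 with 1 gene symbol, 18 unnamed) and gene identifiers of the GRCm38.p6 RefSeq table.

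The 147 probes above 0 on all 5 arrays were quantile normalised on the log2 scale. Means, SDs and CVs are on the linear scale. Quantile normalisation gives tied values to bright probes. Within-array ratios used deposited values. The spread test used limma 3.58.1 and statmod 1.5.0 in R 4.3.3 with Benjamini-Hochberg adjustment over 146 probes. The 1 probe brightest on every array has no spread after quantile normalisation and was left out. In simulated data the test recovered 63.3% of probes given an SD 3 times the trend and 86.7% at 5 times. Smaller widenings, such as that of Srf, and narrower spreads were not simulated. No array was repeated, so noise and differences between animals cannot be told apart, and precision is limited by the number of arrays. Figures used matplotlib 3.10.9.

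The members and gene lists were chosen with earlier results of these data known. Named genes are the 8 members, the 2 named genes with the steadiest ratio to each member above 0 on all arrays, and genes of a list of regulators, partners and targets, with values where a result turns on them (Cdkn1a and Fst were chosen from it after their values were seen). Alternatives were deposited values, division by each array's total (223 probes) or median (147 probes), and a filter that drops the dimmest 25%. Others were a floor in place of the filter, an offset per array, an ordinary variance fit and leaving out each mouse.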

Additional observations from a re-analysis of the deposited data

Results flagged for a closer look

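Of 29 sets of 5 values checked for a mouse far from the others (8 deposited, 6 quantile-normalised and 15 within-array ratios), 1 met Dixon's criterion. This was the deposited value of Srf, where mouse 6 was highest at 0.2478 and its gap to the next mouse was 0.830 of the range. About 1 in 20 independent sets would do so by chance, and these sets share arrays and genes. The quantile-normalised values of Srf and its 5 ratios to the other genes did not meet the criterion.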

How the results depend on the processing

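The count of genes above 0 on all arrays was 6, 5 under the stricter limit and 6 to 7 with a mouse left out, where Myod1 joined without mouse 1. With a mouse left out, the mean log2 ratio of Myf6 to Myog ran from 1.78 to 2.02 and its SD from 0.31 to 0.47. For Mef2c to Mef2a the mean ran from 4.55 to 4.81 and the SD from 0.32 to 0.51. With the offset added, the mean log2 ratio of Mef2c to Mef2a was 3.96 in place of 4.72 and its SD 0.14 in place of 0.46; the offset raises dim values most, and Mef2a is the dim partner. No member was called wider or narrower than the trend by limma in any of 10 alternatives (Mef2a in 9). CVs moved by over 1.5 times in 10 of 59 alternatives, of which 5 used deposited values, and SDs of log2 ratios in 13 of 105. No mean log2 ratio changed sign in these alternatives. Without the dimmest 25% of probes, Mef2a fell out and has no value. Signal over background limits Myf5 most, which was above 0 on 0 arrays, and then Mef2a and Myod1. No paired analysis was possible because the study has 1 group.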
